A study of Saccharomyces cerevisiae with 16 samples.

Results

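The hexose transporter genes *HXT1* to *HXT7* encode the main glucose carriers of the budding yeast *Saccharomyces cerevisiae*. They were examined here in RNAPII ChIP-seq peak lists, as the ORFs that carry these 7 symbols among the 6002 protein-coding ORFs of the nuclear chromosomes. In this assay, chromatin bound by RNA polymerase II (RNAPII) was recovered with the antibody 8WG16, and regions enriched over input chromatin were called as peaks. WT cells of the W303a background were compared with *ubc9-6* cells. In *ubc9-6* the *UBC9* locus holds repeated mutant copies of the gene beside a *TRP1* marker, and the SUMO-conjugating enzyme Ubc9 is left partly active. Cells growing in log phase in SC medium were kept at 30 °C (untreated) or moved for 12 min to 37 °C (heat shock). Each strain and treatment was represented by 2 replicates, so that 8 peak lists in 4 groups were compared.

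Glucose enters yeast cells by facilitated diffusion through Hxt proteins, which differ in their affinity for the sugar. Hxt1 and Hxt3 are low-affinity carriers used when glucose is plentiful, Hxt2 and Hxt4 have a higher affinity, and Hxt6 and Hxt7 are high-affinity carriers used when glucose is scarce. Hxt5 is known from slowly growing and stressed cells. When glucose is scarce the repressor Rgt1, with its partners Mth1 and Std1, keeps several *HXT* promoters silent, and the sensors Snf3 and Rgt2 relieve this repression when glucose is present. Heat shock induces further genes through the heat shock factor Hsf1 and through Msn2 and Msn4, which bind stress response elements.

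The genes lie at 3 places in the genome (sacCer3). *HXT7* (YDR342C) spans chrIV:1154216-1155928, *HXT6* (YDR343C) chrIV:1159608-1161320 and *HXT3* (YDR345C) chrIV:1162957-1164660. *HXT4* (YHR092C) spans chrVIII:287081-288811, *HXT1* (YHR094C) chrVIII:290913-292625 and *HXT5* (YHR096C) chrVIII:294669-296447. *HXT2* (YMR011W) stands alone at chrXIII:288079-289704 and is the only one of the 7 on the plus strand. These positions run from the start to the stop codon.

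*HXT6* and *HXT7* are nearly the same gene. Their ORFs, of 1713 bp each, were 99.8% identical and differed at 3 bases, which are T1632C, G1666A and T1677C with the *HXT6* base first and positions counted from 1 at the start codon. One of these changes the protein (A556T, the residue of Hxt6 first). The coding stretch that holds all 3 differences (ORF positions 1621 to 1690) is shown because only reads or read pairs that reach these bases, or that reach out of the copies, can tell them apart. Capitals mark the differing bases.
*HXT6*, chrIV:1159631-1159700, minus strand: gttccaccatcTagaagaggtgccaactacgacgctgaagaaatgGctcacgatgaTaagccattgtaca
*HXT7*, chrIV:1154239-1154308, minus strand: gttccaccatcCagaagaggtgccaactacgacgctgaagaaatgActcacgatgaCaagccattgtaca

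Extended outward from the ORFs without gaps, the stretch that both loci share ran from 97 bp before the start codon to 86 bp past the stop codon. It spans chrIV:1159522-1161417 at *HXT6* and chrIV:1154130-1156025 at *HXT7*. It was 1896 bp long and held 8 differing bases. Of the 1594 windows of 120 bp in the *HXT6* ORF, 1512 (94.9%) occurred elsewhere in the genome, and *HXT7* gave the same count. The share was 1.89% for *HXT3* and 0 for *HXT1*, *HXT2*, *HXT4* and *HXT5*. A read or read pair from the shared stretch can thus be assigned to one copy only where it reaches a differing base or reaches out of the stretch. How the other reads were placed is not given in the sources used here. The other pairs of the family were 69.3% to 82.8% identical over aligned ORF bases. Hxt1 and Hxt3 were the closest of those other pairs as proteins, at 86.6% of aligned residues.

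The promoters differ more than the ORFs. The 500 bp before the start codon were searched on both strands for CGGANNA, the sequence that Rgt1 binds, for AGGGG, the core of the stress response element, and for GAANNTTC, a pair of heat shock element units. CGGANNA matched 4 times at *HXT1* and 5 times at *HXT3*, 2 times each at *HXT2* and *HXT4*, 1 time each at *HXT5* and *HXT6* and 0 times at *HXT7*. At least 1 match was present in 42.0% of the 6000 windows of this length before ORFs, at least 4 in 0.55% and at least 5 in 0.133%. AGGGG matched 2 times each at *HXT5* and *HXT7*, 1 time at *HXT1* and 0 times at the other 4 genes, where 34.1% of all windows held a match and 8.13% held at least 2. GAANNTTC matched 1 time each at *HXT1* and *HXT3* and was present in 19.2% of all windows. No printed match overlaps one to another of these motifs. Whether the matches bear on the peaks was not tested. Stretches of 5 promoters are shown, from genes with peaks described in what follows, with every match inside a stretch in capitals. The AGGGG match at *HXT1* (first base at -157 from the start codon) lies outside the stretch shown. So does the GAANNTTC match at *HXT3* (first base at -79). *HXT4*, which had a peak in 2 lists, is not shown.
*HXT1*, chrVIII:292846-293115, minus strand, CGGANNA and GAANNTTC: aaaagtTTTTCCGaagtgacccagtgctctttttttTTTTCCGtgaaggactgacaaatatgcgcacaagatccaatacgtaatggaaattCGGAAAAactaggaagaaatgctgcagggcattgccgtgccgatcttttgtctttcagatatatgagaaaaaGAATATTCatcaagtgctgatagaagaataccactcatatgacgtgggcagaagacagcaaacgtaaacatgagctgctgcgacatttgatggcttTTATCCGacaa
*HXT3*, chrIV:1164971-1165110, minus strand, CGGANNA: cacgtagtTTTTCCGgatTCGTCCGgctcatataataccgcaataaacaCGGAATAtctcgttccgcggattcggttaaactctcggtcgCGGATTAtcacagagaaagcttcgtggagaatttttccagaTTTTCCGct
*HXT5*, chrVIII:296728-296927, minus strand, AGGGG and CGGANNA: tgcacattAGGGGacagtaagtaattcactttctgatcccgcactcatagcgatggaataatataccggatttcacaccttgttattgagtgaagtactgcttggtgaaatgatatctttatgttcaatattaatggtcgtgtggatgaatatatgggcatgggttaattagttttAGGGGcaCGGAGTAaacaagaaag
*HXT7*, chrIV:1156159-1156308, minus strand, AGGGG: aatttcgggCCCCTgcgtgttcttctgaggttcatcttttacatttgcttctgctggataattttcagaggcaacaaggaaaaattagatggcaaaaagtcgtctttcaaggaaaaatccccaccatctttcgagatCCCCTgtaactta
*HXT6*, chrIV:1161551-1161700, minus strand, CGGANNA: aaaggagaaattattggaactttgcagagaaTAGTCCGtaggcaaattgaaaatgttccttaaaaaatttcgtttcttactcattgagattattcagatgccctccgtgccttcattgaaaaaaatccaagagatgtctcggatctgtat
The last pair covers the same distances from the start codon at *HXT7* and *HXT6*. Over the whole 500 bp before the start codon the copies matched at 42.0% of bases without gaps.

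The 8 lists held 1451 to 1545 peaks, and 25.1% to 28.8% of all ORFs were occupied in a list, which means that at least 0.5 of the ORF lay under peaks. Each list comes from 1 immunoprecipitate. The study states a nominal sequencing depth, but the lists do not give the reads behind each of them, so no counting interval is given. A region without a peak is one that did not pass the authors' threshold and may still hold RNAPII. One list stood apart from its replicate. At *HSP104*, which encodes the heat-induced disaggregase, the fold enrichment was 7.96 and 2.45 in WT untreated replicates 1 and 2, 11.4 and 6.62 in the WT heat shock lists, 2.40 and 2.17 in the *ubc9-6* untreated lists and 6.08 and 5.86 in the *ubc9-6* heat shock lists. *HSP104* thus had a value within the heat shock range in the list labelled WT untreated replicate 1. At *SSA4*, a heat-induced Hsp70 gene, that list had 2.96, between 1.45 in WT untreated replicate 2 and 4.54, the lowest heat shock value. Of 6 heat shock genes examined, picked with the values of the *HXT* genes in view, that list lay within the range of the heat shock lists at 2 (*HSP104* and *HSP82*) and between WT untreated replicate 2 and the lowest heat shock list at the other 4 (*HSP26*, *HSP42*, *HSP78* and *SSA4*). The within-list ranks of 4200 ORFs with a peak in at least 1 list correlated at 0.75 between the WT untreated lists and, for the list labelled WT untreated replicate 1, at 0.83 with WT heat shock replicate 1 and at 0.75 with WT heat shock replicate 2. WT lists with the same number deviated together from their group means (r = 0.339). The differences in rank, width, edges and fold ratio that this list enters are given with and without it. Because the list was singled out with the values of the *HXT* genes known, the differences without it carry no p.

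The family divided into genes with peaks in every list (*HXT3*, *HXT6* and *HXT7*), genes with peaks in some (*HXT1*, *HXT4* and *HXT5*) and *HXT2*, which had none. Of the 7 genes, 4 and 3 were occupied in the WT untreated lists, 2 and 4 in the WT heat shock lists, and 4 in each of the 4 *ubc9-6* lists. The set of occupied genes was not the same where the count was: it was *HXT1*, *HXT3*, *HXT6* and *HXT7* in untreated *ubc9-6* cells and *HXT3*, *HXT5*, *HXT6* and *HXT7* in heat shocked *ubc9-6* cells. The difference in the number of occupied genes was -0.25 for heat shock minus untreated over both strains and 0.75 for *ubc9-6* minus WT over both treatments, against a pooled SD of 0.79 between replicates.

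**Figure D1:**
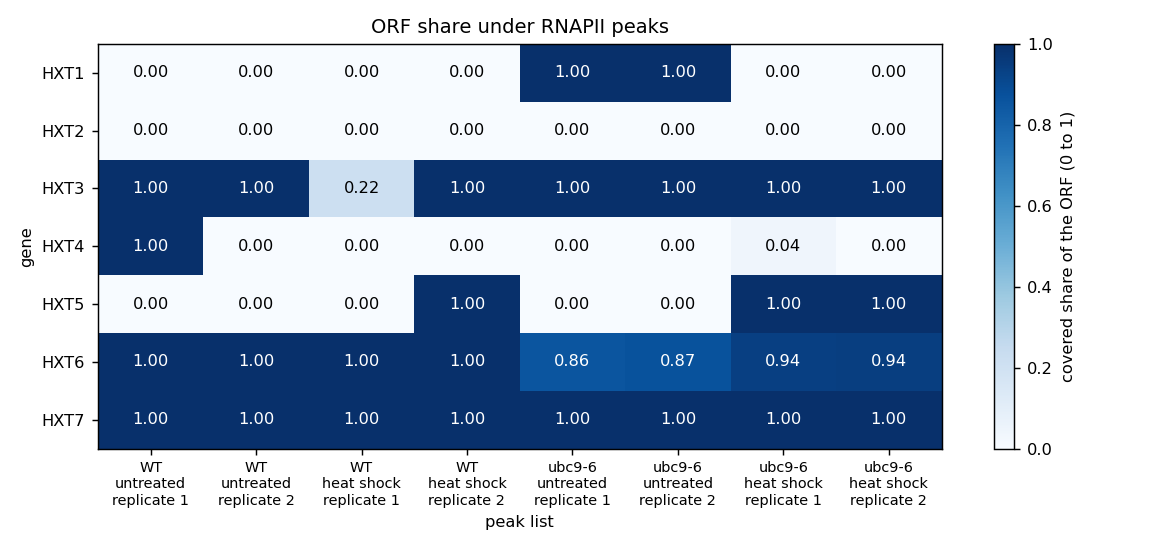
Share of each ORF (rows) that lay under RNAPII peaks in each of the 8 lists (columns), from 0 in white to 1 in dark blue. *HXT7* was covered in full and *HXT6* over at least 0.857 of its length in all lists, *HXT2* in none, and *HXT1* only in the lists from untreated *ubc9-6* cells.

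*HXT7*, a high-affinity carrier gene, had the strongest peak of the family in 5 of the 8 lists and was covered from start to stop codon in all. Its fold enrichment over input was 10.5 and 3.36 in the WT untreated lists, 10.1 and 8.01 in the WT heat shock lists, 2.37 and 2.53 in the *ubc9-6* untreated lists, and 6.77 and 6.91 in the *ubc9-6* heat shock lists. All 4 heat shock lists were above the untreated lists except the list labelled WT untreated replicate 1, which held the highest value of all. Since fold depends on depth, peaks were compared between lists by rank percentile, the rank of a peak by fold as a percentage of the peaks in its list, where low values are strong peaks and an ORF with no peak is set at 100. By this measure *HXT7* was at 0.468 and 8.0 in WT untreated, 0.779 and 1.54 in WT heat shock, 22.2 and 19.6 in *ubc9-6* untreated, and 1.68 and 1.26 in *ubc9-6* heat shock. Its peak was thus number 7 of 1495 in the list labelled WT untreated replicate 1 and number 338 of 1522 in *ubc9-6* untreated replicate 1.

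In *ubc9-6* cells, the mean rank percentile of *HXT7* was 20.9 ± 1.86 (SD, n = 2) untreated and 1.47 ± 0.301 (SD, n = 2) after heat shock, and the lists did not overlap. In WT cells it was 4.23 ± 5.33 (SD, n = 2) and 1.16 ± 0.536 (SD, n = 2), and the lists overlapped. Over both strains the difference, heat shock minus untreated, was -11.2 points (exact stratified permutation test, two-sided, p = 0.167, where the smallest p the design allows is 0.0556). Without the list labelled WT untreated replicate 1 it was -13.1 points. The overlap in WT came from that list alone, so leaving it out removes the overlap by construction. Untreated WT is then represented by replicate 2 only, at 8.0. The *ubc9-6* minus WT difference was 8.48 points (exact stratified permutation test, p = 0.111), and 6.60 points without the list labelled WT untreated replicate 1.

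*HXT6*, the copy next to *HXT7*, followed it at a lower level. Its fold was 9.0 and 2.73 in WT untreated, 8.70 and 6.81 in WT heat shock, 1.76 and 1.88 in *ubc9-6* untreated, and 5.32 and 5.12 in *ubc9-6* heat shock. *HXT7* was above *HXT6* in all 8 lists, and the list labelled WT untreated replicate 1 was again the highest. The replicates of untreated WT differed 3.30-fold at *HXT6* and 3.13-fold at *HXT7*, whereas in the other 3 groups they differed 1.04-fold to 1.28-fold at *HXT6* and 1.02-fold to 1.26-fold at *HXT7*.

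The rank percentile of *HXT6* was 1.07 and 13.7 in WT untreated, 1.43 and 2.21 in WT heat shock, 35.0 and 31.0 in *ubc9-6* untreated, and 3.24 and 3.04 in *ubc9-6* heat shock. In both treatments the *ubc9-6* lists were weaker than the WT lists, with no overlap. The difference was 13.5 points over both treatments (exact stratified permutation test, p = 0.0556, the smallest possible) and 10.3 points without the list labelled WT untreated replicate 1. *HXT6* was the only one of the 7 genes whose lists were apart in this way in both treatments, and 18.7% of the 4200 ORFs with a peak had a weaker peak in *ubc9-6* by the same rule, against 15.6% with a stronger one. The smallest Benjamini-Hochberg adjusted p over the 4200 ORFs was 0.162 in this comparison, so no ORF passed 0.05. For heat shock minus untreated, *HXT6* differed by -17.7 points over both strains (exact stratified permutation test, p = 0.167) and by -20.9 points without the list labelled WT untreated replicate 1.

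**Figure D2:**
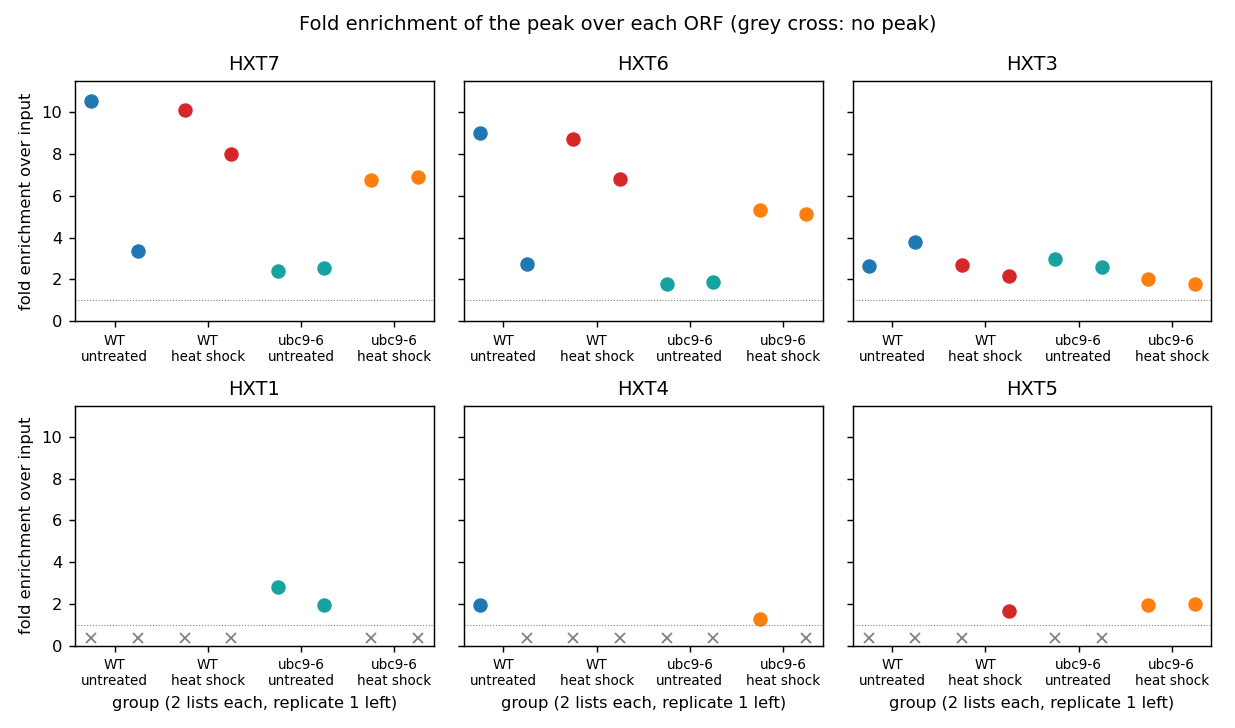
Fold enrichment over input (y axis, linear) of the peak that covers most of each ORF, in the 8 lists, with 1 point per list coloured by group and grey crosses where no peak was called. *HXT6* and *HXT7* were low in WT untreated replicate 2 (2.73 and 3.36) and in untreated *ubc9-6*, and high elsewhere, while *HXT3* stayed between 1.76 and 3.80.

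The ratio of *HXT7* to *HXT6* differed by strain. *HXT7* had 1.17 and 1.23 times the fold of *HXT6* in WT untreated, 1.16 and 1.176 times in WT heat shock, 1.35 and 1.34 times in *ubc9-6* untreated, and 1.27 and 1.35 times in *ubc9-6* heat shock. All 4 *ubc9-6* lists lay above all 4 WT lists. Either fold may hold reads from the other copy, and this was not tested. The difference between strains was 0.145 (exact stratified permutation test, p = 0.0556, adjusted p = 0.127 over the 16 comparisons of ratios, widths and edges made for these genes), and 0.129 without the list labelled WT untreated replicate 1.

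The extent of the *HXT6* peak differed between the strains without overlap. In WT the peak over *HXT6* covered the whole ORF and was 2540 and 2199 bp wide in the untreated lists and 2657 and 2601 bp wide in the heat shock lists. In *ubc9-6* it was 1468 and 1487 bp wide untreated and 1682 and 1687 bp wide after heat shock, and covered 0.857 and 0.868 of the ORF untreated and 0.941 and 0.945 after heat shock. The mean width differed by -918 bp, *ubc9-6* minus WT (1581 bp against 2499 bp, exact stratified permutation test, p = 0.0556, adjusted p = 0.127), and by -833 bp without the list labelled WT untreated replicate 1. Within each strain the heat shock lists were also wider than the untreated lists, without overlap. Heat shock minus untreated, the difference was 233 bp (exact stratified permutation test, p = 0.0556, adjusted p = 0.127), and 318.5 bp without that list. Between the strains, the width of the *HXT7* peak differed by 21.3 bp (exact stratified permutation test, p = 0.889), and by 75.3 bp without that list. The covered share of *HXT6* was lower in *ubc9-6* in both treatments with no overlap (mean 0.903 against 1, exact p = 0.0556), as it was for 9.1% of the 4200 ORFs, while 14.1% were higher. The smallest adjusted p over the ORFs was 0.239.

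Measured against the start codon, the upstream edge of the *HXT6* peak lay 332, 137, 353 and 288 bp before it in the WT lists (untreated, then heat shock). In *ubc9-6* it lay inside the ORF untreated (at -74 and -28 bp on the same scale) and 70 and 69 bp before the start codon after heat shock. The downstream edge lay 495, 349, 591 and 600 bp past the stop codon in WT, and in *ubc9-6* it lay inside the ORF, at -171, -198, -101 and -95 bp on that scale. The strains differed by -268 bp at the upstream edge and -650 bp at the downstream edge (exact stratified permutation tests, p = 0.0556 each, adjusted p = 0.127 each). Without the list labelled WT untreated replicate 1 the differences were -220 bp and -614 bp.

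Set against the stretch shared with *HXT7*, all 4 *ubc9-6* peaks over *HXT6* lay wholly within the shared 1896 bp. Their upstream edges fell at -171, -125, -27 and -28 bp from its upstream end, where negative values lie inside. All 4 WT peaks over *HXT6* reached out of it at both ends, by 40 to 256 bp upstream, and so did all 8 peaks over *HXT7*, by 74 to 305 bp upstream. Thus *HXT7* had peak bases in sequence of its own in every list, and *HXT6* had them in the WT lists only. The upstream edge of *HXT7* differed between strains by -70.3 bp (exact stratified permutation test, p = 0.0556, adjusted p = 0.127), and by -42.0 bp without the list labelled WT untreated replicate 1. Its downstream edge differed by 91.5 bp (exact stratified permutation test, p = 0.111, adjusted p = 0.162), and by 117 bp without that list. Since most windows of the shared stretch do not distinguish the copies, the values of *HXT6* in *ubc9-6* may include reads from *HXT7*, and the share of such reads was not tested. Whether the *ubc9-6* strain carries both copies was not tested either, and this bears on every rank, width and edge given for *HXT6* in *ubc9-6*. The values of *HXT7* may likewise include reads from *HXT6* in either strain, since 94.9% of its ORF windows also occur elsewhere. This bears on the fold and rank of *HXT7* and on its ratios to *HXT6* and *HXT3*, and was not tested.

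**Figure D3:**
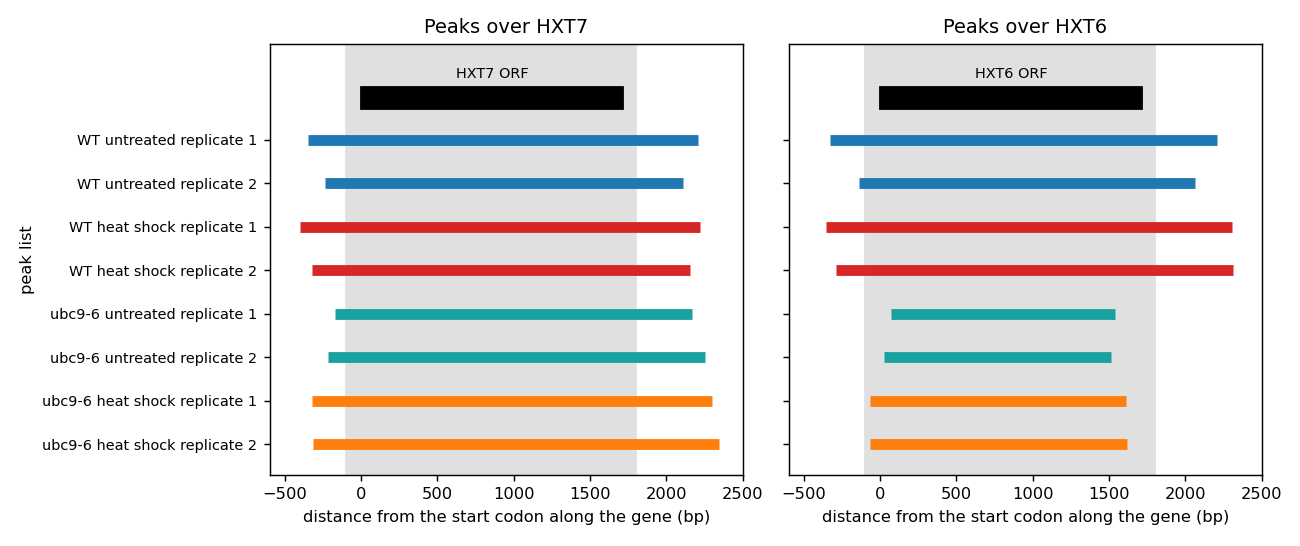
Extent of the peak over *HXT7* (left) and *HXT6* (right) in each list, as distance in bp from the start codon along the gene, with 1 bar per list. The black bar is the ORF and the grey band the stretch of 1896 bp that both loci share: the *ubc9-6* peaks over *HXT6* stay within the band, and all others pass both of its ends.

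*HXT3*, a low-affinity carrier gene, had a peak of moderate strength in every list. Its fold was 2.63 and 3.80 in WT untreated, 2.71 and 2.16 in WT heat shock, 2.98 and 2.58 in *ubc9-6* untreated, and 2.0 and 1.76 in *ubc9-6* heat shock. The ORF was fully covered in 7 lists. In WT heat shock replicate 1 the peak covered 0.218 of it and began 1333 bp after the start codon, so that *HXT3* was not occupied there and its fold is that of the 3′ end alone. The rank percentile was 16.5 and 6.03 in WT untreated, 15.0 and 25.3 in WT heat shock, 14.3 and 18.6 in *ubc9-6* untreated, and 27.6 and 34.9 in *ubc9-6* heat shock. The heat shock lists were weaker than the untreated lists without overlap in *ubc9-6*, and overlapped with them in WT. Over both strains the difference was 11.8 points toward weaker peaks (exact stratified permutation test, p = 0.111), and 14.4 points without the list labelled WT untreated replicate 1. The *ubc9-6* minus WT difference was 8.15 points (exact stratified permutation test, p = 0.111), and 10.8 points without that list.

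The order of *HXT3* and *HXT7* was not the same in all lists. *HXT3* had the larger fold in WT untreated replicate 2 and in both untreated *ubc9-6* lists, where the ratio of *HXT7* to *HXT3* was 0.883, 0.796 and 0.982. In the 4 heat shock lists the ratio was 3.73 and 3.71 (WT) and 3.39 and 3.92 (*ubc9-6*), and in the list labelled WT untreated replicate 1 it was 4.0. The 3.73, from WT heat shock replicate 1, sets the whole *HXT7* ORF against the 3′ end of *HXT3* alone (share 0.218). The mean difference, heat shock minus untreated, was 2.02 over both strains (exact stratified permutation test, p = 0.167, adjusted p = 0.205) and 2.80 without that list. A ratio within a list does not depend on its number of peaks, but whether it depends on depth, as fold does, was not tested.

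*HXT1*, a low-affinity carrier gene, had a peak in the untreated *ubc9-6* lists and in no other. There its ORF was fully covered, with a fold of 2.83 and 1.96 and a rank percentile of 15.8 and 29.2. These peaks began at -133 and -144 bp from the start codon and ended 401 and 348 bp past the stop codon. In the other 6 lists no base of *HXT1* lay under a peak, and the nearest peak upstream was 1282 to 1342 bp away in 5 of them and 5616 bp away in WT untreated replicate 2. *HXT1* was therefore gained in untreated *ubc9-6* against untreated WT, which means occupied in both lists of the first group and in neither list of the second, and lost on heat shock in *ubc9-6*. No gene of the family was lost in the first of these comparisons or, but for *HXT1*, in the second. Of all 6002 ORFs, 5.55% were gained and 4.35% lost in the first comparison, and 3.98% were lost and 3.28% gained in the second. With 2 lists against 2, the exact permutation test cannot go below p = 0.333.

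*HXT5*, the carrier gene known from slow growth and stress, had a peak in heat shock lists only. It was fully covered in WT heat shock replicate 2 (fold 1.65, rank percentile 50.7) and in both *ubc9-6* heat shock lists (fold 1.93 and 1.97, rank percentile 30.0 and 27.7). It had no covered base in WT heat shock replicate 1 or in any untreated list, the list labelled WT untreated replicate 1 included. *HXT5* was thus gained on heat shock in *ubc9-6*, where 3.28% of all ORFs were gained. The covered share differed by 0.75 over both strains (exact stratified permutation test, p = 0.167).

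Each of the 3 peaks over *HXT5* was a single wide region of 4881 to 5420 bp. It began 702 to 762 bp past the stop codon of *HXT5*, ran through the gene and went on over the ORF of *PAL2*, the neighbour upstream. In WT heat shock replicate 1 and in the list labelled WT untreated replicate 1, *PAL2* was fully covered as well and a peak of 382 or 327 bp lay past the stop codon of *HXT5*, with the *HXT5* ORF between them uncovered. The fold of a wide region is a mean over both ORFs and the gap between them, so the fold of *HXT5* alone is not known from it. In untreated *ubc9-6* cells a peak of 606 or 648 bp lay at the same place past the stop codon, and *PAL2* was covered over 0 and 0.192 of its length.

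*HXT4*, which lies beside *HXT1* and encodes a carrier of higher affinity, was fully covered in the list labelled WT untreated replicate 1 alone (fold 1.92, rank percentile 30.8). In *ubc9-6* heat shock replicate 1 a peak with a fold of 1.27 reached over 0.0399 of the ORF at its 3′ end. No base of *HXT4* was covered in the other 6 lists, which include the replicate of the first. The difference between heat shock and untreated lists, -0.24 in covered share over both strains, turned to 0.00997 without the list labelled WT untreated replicate 1.

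**Figure D4:**
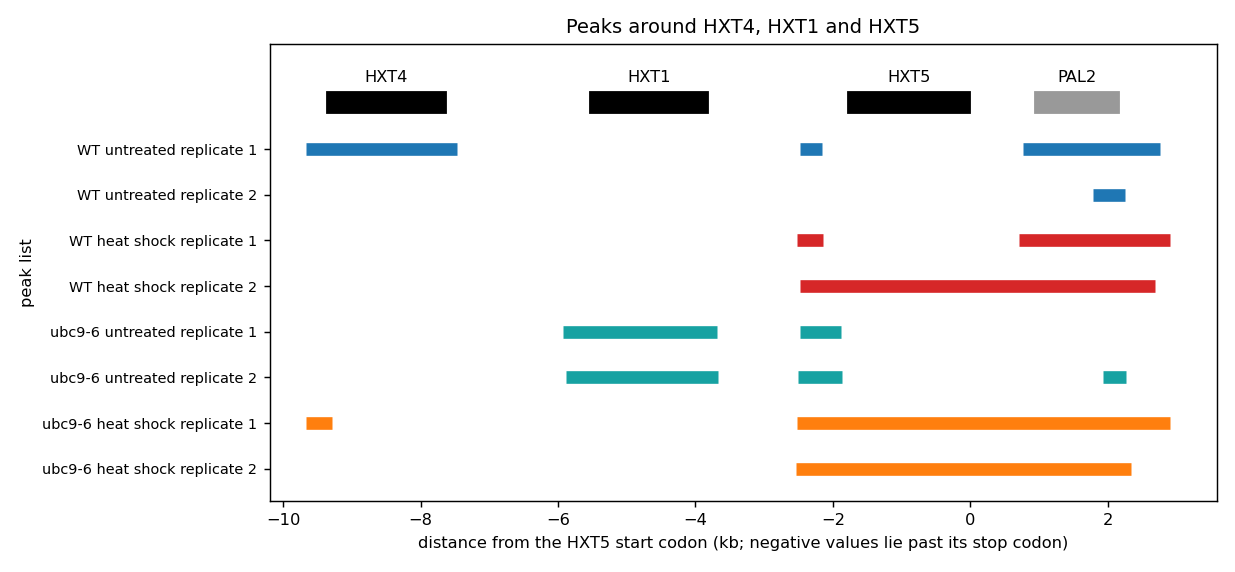
Peaks (coloured bars, 1 row per list) around *HXT4*, *HXT1*, *HXT5* and the neighbouring *PAL2* (black and grey bars), as distance in kb from the start codon of *HXT5*. *HXT1* is covered in the untreated *ubc9-6* lists only, and the peaks over *HXT5* run on over *PAL2*.

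*HXT2*, a carrier gene of higher affinity on chromosome XIII, had no covered base in any list. The nearest peaks ended or began 1284 to 2903 bp upstream of its start codon and 1013 to 1459 bp past its stop codon. A value for *HXT2* therefore could not be set against the other genes beyond its lack of a peak.

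Over the family, lists did not overlap in rank percentile in the following cases. For heat shock against untreated cells in WT there were 0 of 7 genes in either direction, where 16.7% of the 4200 ORFs had a stronger and 15.2% a weaker peak. In *ubc9-6*, *HXT5*, *HXT6* and *HXT7* had a stronger peak after heat shock (3 of 7, against 30.2% of ORFs) and *HXT1* and *HXT3* a weaker one (2 of 7, against 28.5%). For *ubc9-6* against WT in untreated cells, *HXT1* was stronger (1 of 7, against 26.5%) and *HXT6* and *HXT7* were weaker (2 of 7, against 31.6%). After heat shock, *HXT5* was stronger (1 of 7, against 27.5%) and *HXT3* and *HXT6* were weaker (2 of 7, against 27.2%). Where *HXT5* had a peak, its rank is that of the wide region that also covers *PAL2*. These counts are close to the shares over all ORFs, and comparisons with a group in common share its lists. For heat shock over both strains, lists were apart within each strain for 0 of 7 genes, against 11.1% of ORFs with a stronger and 7.1% with a weaker peak and against 3.83% with a higher and 3.86% with a lower covered share. The smallest adjusted p over ORFs was 0.305 for rank and 0.722 for covered share.

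No further member of the family was gained or lost. On heat shock in WT, 0 of 7 genes were gained and 0 lost, where 0.916% of all ORFs were gained and 1.75% lost. Between the strains after heat shock, 0 were gained and 0 lost in *ubc9-6*, against 4.98% and 2.7% of ORFs.

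Of the 10 other genes of the family (*HXT8* to *HXT11*, *HXT13* to *HXT17* and *GAL2*), 0 were occupied in any list, where 43% of all 6002 ORFs were occupied in at least 1 of the 8. *HXT11* alone was touched by peaks, over at most 0.0176 of its ORF in 2 lists. Among the glucose sensors, *SNF3* had no peak, and *RGT2* was touched in all 8 lists and occupied in WT untreated replicate 2 (share 1) and WT heat shock replicate 2 (share 0.522).

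Of 15 genes for regulators of glucose sensing and repression, 10 were occupied in at least 1 list, against the same 43% of all ORFs. *HXK2*, which encodes the hexokinase that also acts in glucose repression, and *GLC7*, which encodes the catalytic subunit of protein phosphatase 1, were fully covered in all 8. *MTH1*, which encodes the Rgt1 partner Mth1, was fully covered in the list labelled WT untreated replicate 1, in WT heat shock replicate 1 and in both *ubc9-6* heat shock lists. It was covered over 0.292 in WT heat shock replicate 2 and had no peak in the 3 other untreated lists. *MTH1* was thus gained on heat shock in *ubc9-6*, and it was the only one of the 15 gained there, where 3.28% of all ORFs were gained. *STD1*, which encodes the related Rgt1 partner, *YCK1*, a casein kinase I gene, and *MIG2*, a repressor gene, were each occupied in all lists but WT heat shock replicate 1, the list in which *HXT3* was also covered only in part. *YCK2*, the paralog of *YCK1*, was fully covered in the 4 *ubc9-6* lists and in the list labelled WT untreated replicate 1, and over at most 0.178 elsewhere. It was gained in *ubc9-6* against WT after heat shock (1 of 15, against 4.98% of all ORFs). *CYC8*, a corepressor gene, was occupied in 3 lists, *MIG1*, a glucose repressor gene, in 1, and *REG1*, which encodes a regulatory subunit of Glc7, in 1. No peak occupied *RGT1*, *GRR1*, *MIG3*, *SNF1* or *TUP1*.

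The ORFs whose rank percentile ran most like that of each gene over the 8 lists were sought among 1636 ORFs with a peak in every list. For *HXT7* these were *VHS2* (Pearson r 0.995) and the neighbouring pair *MIX14* and *PST2* (0.995). For *HXT6* they were *PGM2*, which encodes the main phosphoglucomutase (0.996), and again *MIX14* and *PST2* (0.996). For *HXT3* they were *BSP1* with the ORF YPR170W-B, which lies under the same peaks (0.957), and *CLU1* (0.925). These are the highest of many correlations over 8 points in 4 groups and are given as a description. The other 4 genes lacked a peak in at least 5 lists and were not compared in this way.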

How the data were processed

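The data are RNAPII ChIP-seq peak lists of 8 immunoprecipitates. Reads had been trimmed by the authors, aligned to sacCer3 with Bowtie2 2.3.5 and turned into broad peaks, replicate by replicate, with MACS2 2.1.1.20160309 against the matched input. The deposited lists give peak starts and ends, a fold enrichment over input (a ratio, per peak, by the authors' caller), the −log10 of the p-value and q-value as deposited, and the authors' integer score, which was not used further. Replicates were not pooled. The study states a nominal depth per sample, and the reads obtained for each list are not in the lists. The 8 inputs were not analysed on their own. The study modeled reads over ORFs, which peak lists do not allow.

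Peaks were set against the 6002 protein-coding ORFs of the R64 annotation, whose chromosomes match sacCer3 in name and length. The 7 members, the other gene lists and the motifs were chosen with earlier results of these data known. All 7 members are named, as are list genes occupied in at least 1 list. For each ORF the covered share and the rank percentile by fold were taken. An ORF was occupied at a share of at least 0.5. Differences between means were tested by exact two-sided permutation of lists within strain or within treatment (36 arrangements), with Benjamini-Hochberg adjustment over the 4200 ORFs with a peak in at least 1 list. Gains and losses carry no test. The 2 lists of a group are labelled as independent replicates. The counting was tested on simulated lists. Sequences were read from the R64 genome (RefSeq). The shared stretch was extended with +1 per match and -3 per mismatch to the highest score, stopping once the score had dropped by more than 20. Identities came from global alignment with Biopython 1.88. Python 3.11.15 with NumPy 2.4.6, pandas 2.3.3 and matplotlib 3.10.9 was used.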

Additional observations from a re-analysis of the deposited data

How the results depend on the processing

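The counts of occupied, gained and lost genes kept their values when peaks were limited to a −log10 q of at least 5 or to the 1000 peaks with the highest −log10 q, and when an ORF was called occupied at 0.25 or 0.75. With *HXT6* and *HXT7* joined as 1 unit the differences in occupied genes were the same, at -0.25 and 0.75. Leaving out 1 list at a time moved the heat shock difference in occupied genes over -0.75 to 0.25, and it was 0.25, turned in sign, without WT heat shock replicate 1. The strain difference ranged over 0.25 to 1.25. In the same way, genes gained on heat shock in WT numbered 0 to 1 (1, *HXT5*, without WT heat shock replicate 1), genes lost there 0 to 1, genes lost in untreated *ubc9-6* against WT 0 to 1, and genes gained in heat shocked *ubc9-6* against WT 0 to 2. Of 396 values for single genes, 386 kept their direction and 3 went to 0, all without WT heat shock replicate 1 (the covered share of *HXT3* for both factors and of *HXT5* between strains). The other exceptions were *HXT4*, whose differences for both factors turned to 0.00997 in covered share and -1.89 points in rank percentile without the list labelled WT untreated replicate 1 (leaving out 1 list at a time gave -0.49 to 0.00997 and -1.89 to 32.7 points), and the strain difference in *HXT7* peak width, which ranged over -32.8 to 75.3 bp and was -32.8, -14.0 and -13.3 bp without WT untreated replicate 2, WT heat shock replicate 2 and *ubc9-6* untreated replicate 2. Same-numbered WT lists deviated together (r = 0.339 over 4200 ORFs), but no other pair of groups exceeded 0.047, so the numbers were not taken to pair the lists. With the replicate block the differences were unchanged (*HXT6* rank percentile, *ubc9-6* minus WT, 13.5 points), and the exact p could not go below 0.125. The unknown number of reads per list limits what the absence of a peak shows at *HXT1*, *HXT2*, *HXT4* and *HXT5*.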
